A study of Mus musculus with 18 samples.

Results

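Untranslated exon sequence with open chromatin, located away from promoters, was examined in the accessible chromatin of mouse bone marrow-derived macrophages (BMDMs), primary macrophages grown from bone marrow precursors. Each extended region of the deposited catalog on chromosomes 1 to 19 was represented by its best scored summit, the position of strongest signal. A region was retained when this summit lay over 1000 bp from every annotated transcript start, inside an exon of a protein-coding gene and in no coding sequence. The rule uses positions and the choice of the best summit, and it retained 1354 of 59617 regions in all, or 2.32% of the 58386 regions on these chromosomes. Of these, 895 (66.1%) lay in the 3′ untranslated region (3′ UTR) of a protein-coding transcript and are called gene ends here. The other 459 (33.9%) are called other exons: 30 lay in 5′ UTR exons and 429 in exons of other transcripts of protein-coding genes, such as those that keep an intron.

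Accessibility was measured by ATAC-seq, in which the Tn5 transposase inserts adapters into exposed DNA. Wild type BMDMs received the vehicle DMSO for 1 h and then either received no stimulus (untreated) or were exposed to LPS, the bacterial lipopolysaccharide sensed by Toll-like receptor 4, or to the cytokine IL4. Both were used at 10 ng/mL for 30 min, 1 h, 2 h or 4 h. This gave 9 groups of 2 libraries. The lists pool all 18 libraries, so that the effects of stimulus and time, the spread between libraries and the depth per library were not analysed here.

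The 3′ UTR is the part of an mRNA between the stop codon and the poly(A) tail. It carries binding sites for microRNAs and RNA-binding proteins, and its end is set by cleavage downstream of a polyadenylation signal, most often AATAAA. As DNA, the same sequence can also be bound by transcription factors. In macrophages, PU.1, AP-1, C/EBP and RUNX factors mark many enhancers, whereas NF-kB, IRF and STAT6 carry the response to LPS, interferons and IL-4. CTCF is an architectural protein that, with cohesin, anchors chromatin loops and can insulate neighbouring genes.

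The CTCF motif is shown first, because its share differed most clearly between gene ends and introns. The 5 best scored gene ends with a match are printed together with the 3 that lay closest to the annotated 3′ end. Capitals mark the match, and the strand on which it reads 5′ to 3′ is used. Sequences are from RefSeq's GRCm38.p6, which has the coordinates of mm10.
Aak1, chr6:87002937-87002966, minus strand: caaatactgCCAGCAGAGGGCgctcatctt
Skap2, chr6:51858059-51858088, minus strand: cctaagtggCCAGCAGATGGCagcagcttg
Slc4a3, chr1:75559667-75559696, minus strand: caaaaaccaCCACCAGAGGGCtacacacgg
Dand5, chr8:84815722-84815751, minus strand: cgcttttagCCACTAGGTGGCaccgcgtcc
Tnfrsf1b, chr4:145214570-145214599, plus strand: caggacgggCCACCAGGGGGCagacgtgtt
Actn4, chr7:28893835-28893864, minus strand: ctaagaagtCCAGCAGAGGGCacccagctc
Mtch2, chr2:90866710-90866739, plus strand: acctgtccaCCACCAGAGGGCagcagaact
Thop1, chr10:81082440-81082469, minus strand: tgtacagagCCAGCAGATGGCagcccctca

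The matches in Dand5, an antagonist of Nodal signalling, and in Aak1, a kinase of clathrin-mediated endocytosis, were centred 0 and 2 bp from the summit. The summit scores, the authors' own values on an unstated scale, were 1443 in Aak1 and 1272 in Dand5. Scores of 1394, 1345 and 1248 were listed for Skap2 (a Src kinase adaptor), Slc4a3 (an anion exchanger) and Tnfrsf1b (TNF receptor 2). The 3 gene ends closest to the end of the transcript had scores of 634 in Actn4 (an actin crosslinking protein), 623 in Mtch2 (a mitochondrial outer membrane protein) and 524 in Thop1 (a peptidase), beside a median of 554 over the gene ends with a CTCF match on a single gene strand.

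The remaining motifs are illustrated with the best scored region that holds each of them, where the members are gene ends unless stated. Capitals again mark the match.
AP-1 in H6pd, chr4:149979895-149979923, plus strand: aggctgggcagTGACTCAccgttattcag
PU.1/ETS in Dok2, chr14:70778269-70778298, minus strand: caaggcagtggGAGGAAGTggaaaagtgta
RUNX in Tmem72, chr6:116679756-116679784, minus strand: cttcctaatgcTGTGGTTatgggtagctc
NF-kB in Uggt1 (other exon), chr1:36162790-36162819, plus strand: ggaagcccttGGGACTCTCCtctctttgct
C/EBP in Pgd (other exon), chr4:149155850-149155879, minus strand: cacacttgctgTTGCACAAttgtcttgcag
IRF in Smarcad1, chr6:65115013-65115042, minus strand: ggtgcaataaGAAAATGAAAgaaggaactg
STAT6 in Msmo1 (other exon), chr8:64726419-64726448, plus strand: ctctggtcctTTCATCCGAAgcaccttgga
SP/KLF in Ppfia3, chr7:45339485-45339514, plus strand: ccatagcacggGGGCGGGGaggccccgggg
cAMP response element in Efhd2, chr4:141858727-141858756, plus strand: cttagactgggTGACGTCAcagtttcacaa

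Several of these matches lay toward the edge of the window of 100 bp around the summit. The NF-kB match in Uggt1, an enzyme of glycoprotein folding, was centred 89 bp from the summit, and the C/EBP match in Pgd, an enzyme of the pentose phosphate pathway, 96 bp from it, both toward lower coordinates. In contrast, the SP/KLF match of Ppfia3 was 19 bp and the RUNX match of Tmem72 21 bp away, both toward higher coordinates.

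The label was checked against the annotation and the base composition. The CpG-rich sequence typical of promoters was rare among gene ends: 33 of 895 (3.69%) had 10 or more CpG dinucleotides within 100 bp of the summit, against 59.3% of the 14537 promoter regions, 1.12% of intron regions and 21.1% of coding exons. Among the 30 members in 5′ UTR exons, 7 (23.3%) were CpG-rich. These shares were not tested. Among the 429 regions in exons of other transcripts, 319 lay only in transcripts annotated as retained introns, 76 only in processed transcripts and 30 only in transcripts subject to nonsense-mediated decay. With the smaller basic transcript set of GENCODE, other exons numbered 40 and gene ends 931. The name untranslated exon therefore rests, for most other exons, on transcript models that keep an intron. The regions just inside the limit lay 1005 bp (Tcf12), 1007 bp (Iqgap1) and 1009 bp (Ttc41) from a transcript start, with scores of 1013, 524 and 358. Those just outside lay at 1000, 990 and 984 bp, with scores of 889, 716 and 911.

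The gene ends belonged to 890 protein-coding genes, or 4.70% of the 18923 genes with 3′ UTR sequence outside the promoter window. They were divided evenly over the strands, with 446 on the plus strand, 434 on the minus strand and 15 shared by genes of both strands. Another gene covered the summit at 105 gene ends (11.7%). The distance from the summit to the nearest annotated 3′ end had a median of 847 bp, with quartiles at 338 and 1598 bp and extremes at 2 and 112343 bp. The distance past the coding sequence had a median of 989 bp, and 486 gene ends were closer to the 3′ end than to the coding sequence. Distances are along the genome and include introns within 3′ UTRs.

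The extremes of this range were examined individually. The summits nearest to an end lay 2 bp from it in Gmfb, a regulator of actin branching, and in Iqch. Their scores were 780 and 856, against a median of 685 over all gene ends. The Iqch summit was also covered by another gene, Gm16759. The farthest were 2 summits of D10Wsu102e, at 112343 and 90968 bp, with scores of 1394 and 737, and 1 of D1Ertd622e at 26761 bp with a score of 613. The summit at 112343 bp lay in a repeat, and the 38 bp centred on it occurred 5 times in the genome, so its score is uncertain. The annotated 3′ UTR was an unbroken exon piece of 122586 bp in D10Wsu102e and of 39400 bp in D1Ertd622e, so that these regions lay deep inside very long transcript models. Whether such models reach their annotated ends in BMDMs was not tested.

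Next, the density of summits was determined, counted per Mb of sequence that could have met the rule. Gene ends had 30.5 ± 7.35 summits per Mb (SD, n = 19 chromosomes). Introns of protein-coding genes had 27.5 ± 3.47, a difference that was not significant after correction (gene ends higher on 13 of 19 chromosomes, two-sided paired permutation test, adjusted p = 0.0826). Coding exons had 23.1 ± 5.26 summits per Mb, and gene ends were denser on 17 of 19 chromosomes (adjusted permutation p = 0.00777). When only regions at or above the median score of the list were counted, densities of 13.6 and 11.7 per Mb remained and the difference from coding exons was no longer significant (adjusted permutation p = 0.472). Over all chromosomes together, other exons had the highest pooled density of these classes, 35.8 per Mb, against 30.9 for gene ends, 27.3 for introns and 23.1 for coding exons. No test was made for other exons.

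**Figure D1:**
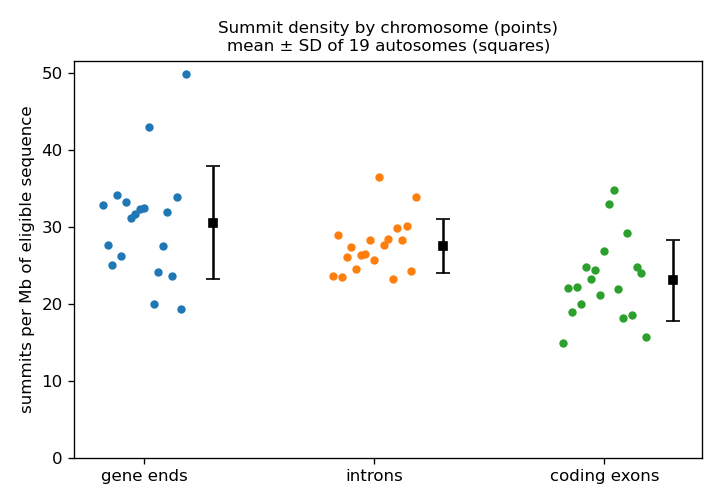
Summits per Mb of eligible sequence (y axis) for gene ends, introns and coding exons. Each point is an autosome, in chromosome order from left to right, and squares with bars are the mean ± SD of 19 autosomes. Gene ends ranged from 19.3 on chromosome 18 to 49.9 on chromosome 19, overlapping the other classes.

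Chromosomes 19 and 11 had the densest gene ends, with 49.9 and 43.0 summits per Mb, and also had dense introns (34.0 and 36.5). Chromosomes 18 and 12 had the lowest values, 19.3 and 20.0 per Mb, based on 16 and 20 gene ends.

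Within 3′ UTRs, the position relative to the annotated end was then considered. The last 500 bp, which held 315 gene ends (35.2%), had 31.6 ± 11.0 summits per Mb and the rest of the 3′ UTRs 29.7 ± 7.07 (SD, n = 19 chromosomes), a difference within the spread between chromosomes (permutation test, adjusted p = 0.555). This difference of 1.87 per Mb became 6.61 with all listed summits and -0.306 at or above the median score, without passing the test. Finer bins ranged from 38.3 per Mb at 250 to 500 bp to 19.1 per Mb beyond 4000 bp, where 40 summits were found. The first 250 bp had 27.3 per Mb. These bins were described without a test. The polyadenylation signal AATAAA was present within 200 bp of the summit at 19.1% ± 6.74 of gene ends on the strand of the gene and at 18.7% ± 6.43 on the opposite strand, values that were not significantly different (permutation test, adjusted p = 0.963).

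**Figure D2:**
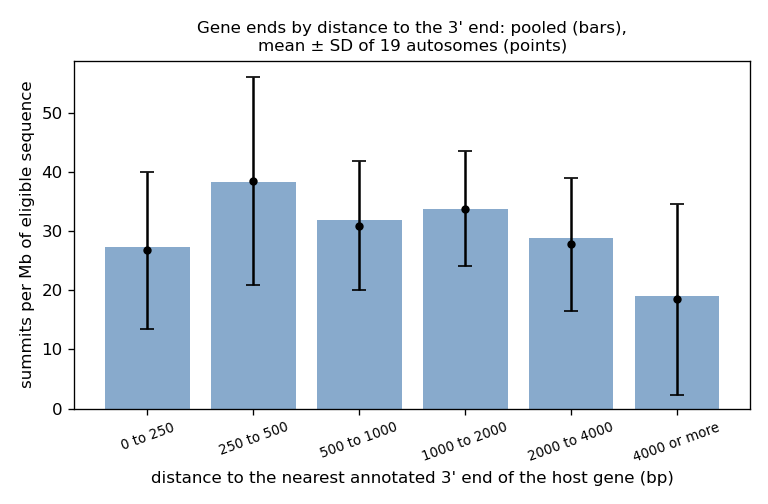
Density of gene end summits (y axis, summits per Mb of eligible 3′ UTR) by distance to the nearest annotated 3′ end (x axis, bp). Bars are pooled over 19 autosomes, and points with bars are their mean ± SD. The highest bar is 38.3 per Mb at 250 to 500 bp, and the SDs of neighbouring bins overlap.

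The strength and shape of the peaks were compared next. Gene ends had scores between 140 and 2087 with a median of 685 (interquartile range 486 to 1059), and other exons had scores between 108 and 2166 with a median of 695. Over chromosomes, the median score was 680 ± 79.3 for gene ends and 722 ± 19.4 for introns (SD, n = 19 chromosomes, permutation test, adjusted p = 0.0826). It was 708 ± 109 for other exons (adjusted permutation p = 0.530). With basic transcripts, which left 40 other exons, the difference of gene ends from other exons was -360, against -27.1 here. Under the remaining alternatives it lay between -54.7 and -13.1, and none of these differences passed the test. Pooled over chromosomes, promoters had a median of 1272. Reference peaks at gene ends were narrower by a small margin, with a median of 216 ± 8.63 bp against 221 ± 2.42 bp in introns (adjusted permutation p = 0.0400), and this was lost under several of the alternatives listed at the end. The number of summits per extended region was 1.29 ± 0.183 at gene ends and 1.30 ± 0.0405 in introns (adjusted permutation p = 0.963). With all listed summits, where a region counts once per summit, the difference of -0.00263 became 0.623 without passing the test (adjusted permutation p = 0.134).

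The 10 best scored gene ends lay in genes of diverse function. H6pd, which supplies NADPH in the endoplasmic reticulum, had the highest score (2087), and its summit lay 501 bp from the 3′ end. It was followed by Dok2 (2061), an adaptor that restrains tyrosine kinase signalling in myeloid cells, and Nkiras2 (2008), an inhibitor of NF-kB activation. Prrt1 (1969) is best known as a synaptic membrane protein, and Kdr (1929) encodes VEGF receptor 2 of endothelial cells. Tmem72 (1903), Pla1a (1877, a phosphatidylserine-specific phospholipase), Atf6 (1864, a sensor of unfolded proteins), Ehd1 (1864, a regulator of endocytic recycling) and Ppfia3 (1838, a scaffold of the synaptic active zone) completed the list. The Ehd1 region contained 10 summits, whereas 5 of the other regions contained a single one. The Ppfia3 summit lay in a reference peak of only 6 bp, the narrowest of all members, inside an extended region with 4 summits.

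Among other exons, the highest scores were found in Slc35f6 (2166), Vps13d (1995, a lipid transfer protein needed for mitochondrial clearance), Smim3 (1982), Atp9b (1955, a putative phospholipid flippase) and Rilpl2 (1929). All these summits lay only in transcripts with a retained intron. The widest reference peaks that held members were those of Mrpl39 (947 bp) and Mrpl15 (905 bp), both subunits of the mitochondrial ribosome, Gm10277 (783 bp), the dicarboxylate transporter Slc13a3 (665 bp) and the lysosomal acid phosphatase Acp2 (662 bp). Of these, Gm10277 and Acp2 are other exons, and the Gm10277 summit was also covered by another gene, Myo18a.

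Most host genes contained a single member: 70 of 1293 had 2 or more and 6 had 3 or more. Mbnl1, a regulator of alternative splicing, had 5 members, 1 of them a gene end with a score of 845 and the others with scores from 349 to 990 in transcripts with a retained intron. Iqgap1, a cytoskeletal scaffold, had 1 gene end (911) and 2 other exons (856 and 524). Dnm3, a dynamin, had 1 gene end (845) and 2 other exons (603 and 515). Each of these Dnm3 summits was also covered by Gm38304, and the gene end by 2810442N19Rik too. Tnip3, which binds the NF-kB inhibitor A20, had 3 other exons with scores of 1632, 544 and 282. All 3 members of Tmem72 (1903, 1747 and 593) and of D1Ertd622e (613, 476 and 250) were gene ends.

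The sequence under gene end summits was more GC-rich than that in introns. The sequence within 100 bp of the summit had a GC content of 49.99% ± 1.41 at gene ends and 47.96% ± 0.785 in introns, and gene ends were higher on 19 of 19 chromosomes (permutation test, adjusted p = 0.000140). Across the whole eligible sequence the GC content was 42.7% for gene ends and 42.4% for introns. Single gene ends ranged from 30.8% in Mnat1, a subunit of the CDK-activating kinase, to 77.1% in Lrfn1, a synaptic adhesion protein. The 33 CpG-rich gene ends had a median score of 1002, against 675 for the rest. Summits in repeats made up 9.95% ± 5.18 of gene ends and 13.9% ± 1.13 of intron regions (lower on 15 of 19 chromosomes, adjusted permutation p = 0.0148). At or above the median score the difference was -1.13 percentage points and did not pass the test (adjusted permutation p = 0.924). Pooled over chromosomes, the share was 10.1% at gene ends, 4.32% in coding exons and 12.4% in all regions. The shares were not compared with the repeat content of the eligible sequence itself.

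Consensus patterns of 10 motifs were sought, on either strand, in the 100 bp to each side of the summit. Those with letters that can be spelled were TGAGTCA or TGACTCA for AP-1, GAGGAAGT for PU.1/ETS, TGTGGTT for RUNX, TTGCNNAA for C/EBP, GAAANNGAAA for IRF, TTCNNNNGAA for STAT6, GGGCGGGG for SP/KLF and TGACGTCA for the cAMP response element, where N is any base. The patterns of NF-kB and CTCF allow alternative bases and are given by name. Patterns were counted independently of each other, also where their letters overlapped. A match describes the letters and does not show that a factor was bound. In all 58386 regions, matches were present at 17.4% for AP-1, 10.1% for PU.1/ETS, 8.31% for RUNX, 11.6% for C/EBP, 6.91% for STAT6, 5.38% for NF-kB, 3.73% for IRF, 3.66% for CTCF, 7.23% for SP/KLF and 1.07% for the cAMP response element.

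Matches to CTCF were found at 68 of 895 gene ends and, averaged over chromosomes, at 8.35% ± 3.53 of gene ends against 3.40% ± 0.620 of intron regions (SD, n = 19 chromosomes). Gene ends were higher on 17 of 19 chromosomes (permutation test, adjusted p = 0.000140), with chromosomes 7 and 9 as the exceptions. The unadjusted p was 2e-05, the smallest that 100000 resamples can give. The difference also passed the test when introns were weighted to the GC content of gene ends (3.84%, adjusted permutation p = 0.000280) or to their scores (3.54%, adjusted permutation p = 0.000140). Regions outside protein-coding genes, used in place of introns, had a share of 4.71% (gene ends higher on 16 of 19 chromosomes, adjusted permutation p = 0.00434).

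AP-1 and RUNX showed the opposite direction. AP-1 matches were found at 15.0% ± 6.85 of gene ends and 20.4% ± 1.31 of intron regions (lower on 15 of 19 chromosomes, permutation test, adjusted p = 0.0141), which no longer passed the test at or above the median score (difference -3.99 percentage points). RUNX matches were found at 6.70% ± 4.35 and 9.47% ± 0.857 (lower on 15 of 19 chromosomes, adjusted permutation p = 0.0259), and weighting introns to the GC content of gene ends left this difference short of significance (8.89%, adjusted permutation p = 0.0826). The RUNX difference did not pass either with all listed summits (-2.02 percentage points), without repeats (-2.30) or in a window of 50 bp (-1.24), with adjusted permutation p of 0.123, 0.0597 and 0.277. Pooled over regions, AP-1 matches were present at 16.1% of gene ends, 20.5% of intron regions and 14.1% of coding exons. The RUNX shares were 7.71% (95% Wilson interval 6.14 to 9.64%), 9.55% and 4.86%. Lower shares than in introns were thus not particular to gene ends. Eligible 3′ UTR sequence had fewer matches per Mb than introns, 162 against 174 for AP-1 and 241 against 261 for RUNX. These pooled values were not tested. For the other motifs the differences from introns did not pass the test. PU.1/ETS was present at 10.4% ± 3.16 of gene ends against 11.6% ± 0.947 of intron regions (adjusted permutation p = 0.174), and C/EBP at 11.0% ± 5.85 against 12.9% ± 1.25 (adjusted permutation p = 0.308). The factors of the LPS and IL-4 responses had shares of 4.81% against 5.43% (NF-kB, adjusted permutation p = 0.612), 3.03% against 4.03% (IRF, adjusted permutation p = 0.174) and 8.46% against 7.95% (STAT6, adjusted permutation p = 0.708). SP/KLF reached 2.47% against 1.49% (adjusted permutation p = 0.116) and the cAMP response element 0.543% against 0.520% (adjusted permutation p = 0.963). None of the 10 patterns was found at 374 gene ends (41.8%, 95% Wilson interval 38.6 to 45.0%), close to the 40.5% of intron regions and 38.8% of regions outside protein-coding genes without one. Matches to 2 or more patterns were found at 116 gene ends (13.0%) and in 15.7% of intron regions. These shares were not tested. The most, 4 patterns, were found in Dnajc7, a cochaperone, and Rgs7bp, a binding partner of RGS proteins.

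**Figure D3:**
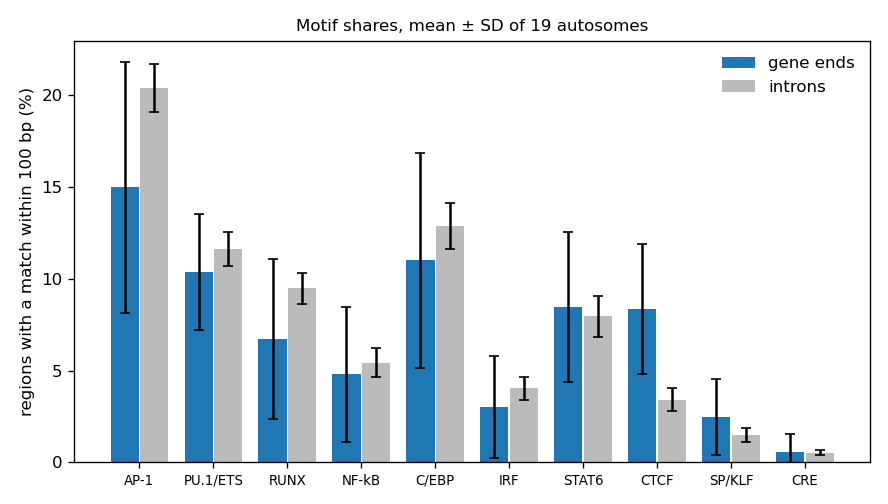
Share of regions with a match within 100 bp of the summit (y axis, %) for 10 motifs at gene ends and in introns, where CRE stands for the cAMP response element. Bars are the mean and lines the SD of 19 autosomes, cut at 0. CTCF is higher at gene ends (8.35% against 3.40%), AP-1 (15.0% against 20.4%) and RUNX (6.70% against 9.47%) are lower, differences that did not pass the test under every alternative, nor did that of CTCF.

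The dependence of the CTCF share on the score was then examined. In the lowest quartile of scores (102 to 534), 31 of 299 gene ends had a match (10.4%, 95% Wilson interval 7.40 to 14.3%), against 4.68% of intron regions. The share was 9.76% at gene ends and 4.57% in introns in the next quartile, and 4.65% and 2.25% in the third. In the highest it was 2.22% at gene ends, where 3 of 135 had a match, and 0.994% in introns. Considering only regions at or above the median score, the difference between gene ends and introns was 1.55 percentage points and did not pass the test (permutation test, adjusted p = 0.215). Other exons had a match at 21 of 459 regions (4.58%, interval 3.01 to 6.89%).

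**Figure D4:**
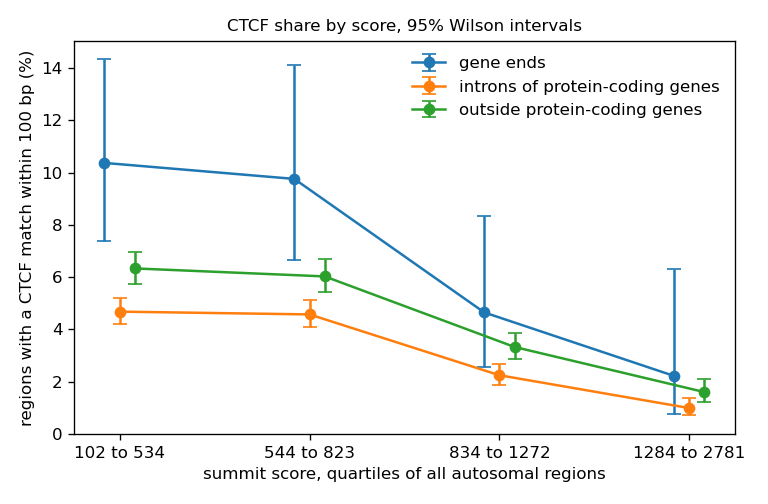
Share of regions with a CTCF match (y axis, %) by quartile of the summit score of all autosomal regions (x axis, score range). Points are pooled shares with 95% Wilson intervals, which cover counting error only. Gene ends lie at 10.4% in the lowest quartile and 2.22% in the highest, and the intervals of the 3 classes overlap in the highest.

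The supply of CTCF matches in the sequence was determined separately from their accessibility. Eligible 3′ UTR sequence contained 240 matches, of which 80 (33.3%) lay within 100 bp of any listed summit. Introns contained 4513, of which 937 (20.8%) lay near a summit. Averaged over chromosomes, matches numbered 8.13 ± 2.64 per Mb at gene ends and 5.40 ± 1.00 per Mb in introns (higher on 16 of 19 chromosomes, permutation test, adjusted p = 0.000240 over the pair of tests). The share near a summit was 38.1% ± 18.6 and 20.8% ± 2.57 (higher on 15 of 19 chromosomes, adjusted permutation p = 0.000440). Both tests were added after the motif shares were seen. Coding exons had as many matches per Mb, 8.20, but 13.7% of their 197 matches were near a summit. AP-1 matches lay near a summit in 4.57% of cases at gene ends and 4.54% in introns, and RUNX matches in 1.48% and 1.41%, given as pooled values without a test. At the 66 gene ends with a CTCF match and a single gene strand, the match had the strand of the gene in 27 (40.9%, interval 29.9 to 53.0%), and 42 were centred within 25 bp of the summit.

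Finally, the genes that carry gene ends were compared with the other genes at their start sites. A reference peak within 1000 bp of a transcript start was found for 84.7% ± 4.80 of the genes with a gene end and for 58.0% ± 5.95 of the other genes with eligible 3′ UTR sequence (SD, n = 19 chromosomes). The share was higher on 19 of 19 chromosomes (permutation test, adjusted p = 0.000140). A gene end's own peak could count as a start site peak where it reached within 1000 bp of a start. With gene ends over 2500 bp from transcript starts, the difference was 25.5 percentage points (adjusted permutation p = 0.000210), against 26.6 here. Genes with a gene end had a longer eligible 3′ UTR, with a median of 2553 bp against 955 bp. In genes with at least 1000 bp of it, the shares were 86.7% and 63.2% (higher on 19 of 19 chromosomes, adjusted permutation p = 0.000140). The median score was 685 at the 757 gene ends whose host had a start site peak and 669.5 at the 138 whose host lacked one.

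**Figure D5:**
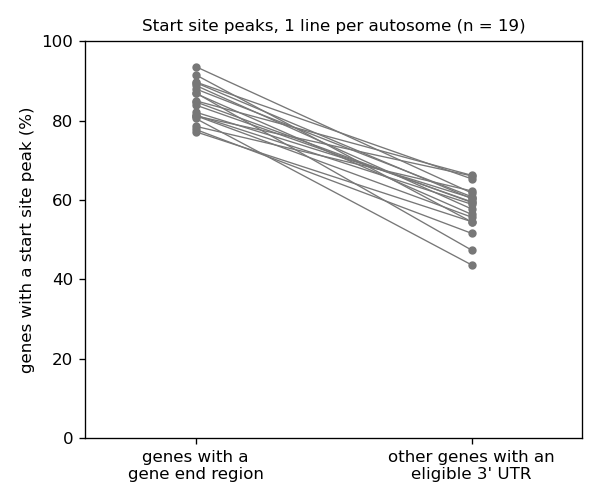
Share of genes with a reference peak within 1000 bp of a transcript start (y axis, %), for genes with a gene end and for other genes with eligible 3′ UTR sequence. Each line joins the values of an autosome (n = 19), and all lines descend, with means of 84.7% and 58.0%.

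Fixed lists of genes with known roles were then searched for members. Of 28 LPS response genes with eligible 3′ UTR sequence, 1 had a gene end: Il1a, which encodes interleukin 1 alpha (score 780, 981 bp from the 3′ end). Of 18 IL-4 response genes, 1 had a gene end: Ccl17, a chemokine for type 2 helper T cells (score 791, 82 bp from the end). Of 19 macrophage genes, 2 had a gene end: Lyz2, the macrophage lysozyme (score 1071), and Runx1, a haematopoietic transcription factor (score 204). Of 10 genes used by all cells, 1 had a gene end, B2m, the light chain of MHC class I (score 634, 76 bp from the end). Of 25 genes of other tissues, 1 had a gene end, the astrocyte gene Gfap (score 376). The summits of Il1a, B2m and Gfap were also covered by another gene (Gm14023, Patl2 and Gm26668), to which they could equally belong. These shares, between 3.57% and 10.5%, stand beside 4.70% of all protein-coding genes with eligible 3′ UTR sequence and rest on 1 or 2 genes each. For comparison, a start site peak was found for 28 of 28 LPS response genes, 14 of 18 IL-4 response genes, 19 of 19 macrophage genes, 10 of 10 genes used by all cells and 5 of 25 genes of other tissues.

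Other exons were found in 4 genes of these lists. Ifit2, an interferon-induced inhibitor of translation, had a summit in a 5′ UTR exon with a score of 1345, which lay 13271 bp from the nearest transcript start. Tgm2, the tissue transglutaminase induced by IL-4 (score 1332), Csf1r, the receptor for the growth factor M-CSF (score 1812), and Tnnt2, cardiac troponin T (score 505), had a summit in a transcript with a retained intron. The Tgm2 summit was also covered by Rprd1b, to which it could equally belong. The Ccl17 gene lacked a start site peak although it had a gene end, and the summit of its gene end lay 1501 bp from the nearest transcript start.

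The uniqueness of the sequence under the summits was checked, since reads in repeated sequence can be placed wrongly. The 76 bp centred on the summit, the length of a read, occurred more than once in the genome for 12 of 1354 members (0.886%), and the central 38 bp for 42 (3.10%). The most copies of the 76 bp were found for the other exons of Haus1 (40 copies), Itga6 (11) and Cep85 (10). The values of these genes are uncertain for this reason.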

How the data were processed

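ATAC-seq libraries of BMDMs were single-end. Per the study's methods and processing notes, the authors removed adapters with BBDuk, trimmed with Trimmomatic 0.39, aligned to mm10 with the mapping step of ShortStack, filtered with SAMtools 1.9 and called peaks with MACS2 2.2.6 without model or local background, keeping duplicates. No shift toward the Tn5 cut site is named, which can displace a summit, and duplicates can raise a score. High-confidence peaks had to overlap between replicates. The 3 deposited BED lists give positions of 82391 reference peaks, 59617 extended regions and 84660 summits. Each summit has a score as deposited by the authors, of unstated scale. All lists are pooled, 0 columns belong to single libraries or other samples, and depth per library is unknown. Depth therefore gives no precision here.

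Transcripts were from GENCODE M21 and sequence from GRCm38.p6, and positions are counted from 1. Only protein-coding transcripts defined 3′ UTRs. Eligible sequence is all sequence of a class that met the rule. Repeats were lower case letters of the genome. Members, lists and motifs were chosen with earlier results of these data known. The replicate unit of every test is the chromosome: differences over 19 autosomes were tested by a two-sided paired permutation test of their signs with 100000 resamples (SciPy 1.17.1) and adjusted by Benjamini-Hochberg over 21 tests. The p-values measure the spread between chromosomes, which share all libraries, not between cultures. Scripts were tested on simulated data. The text names the 10 gene ends and 5 other exons with the highest scores (Fndc7 tied with the last), the 5 in the widest peaks, the 3 nearest to and farthest from the 3′ end, genes with 3 or more members, listed genes, and the best scored member per motif. The values of 1 gene that this rule names are not reported here. The remaining genes (the further CTCF examples, the extremes of GC content and of motif number, the regions at the limit of 1000 bp and repeated sequences) were chosen after their values were seen. Alternatives were other distances (500 and 2500 bp), motif windows (50 and 200 bp), summits, transcript sets, repeats and scores.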

Additional observations from a re-analysis of the deposited data

How the results depend on the processing

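No paired analysis was possible because the lists carry no column per library, although the labels number the libraries of each group alike. For the same reason no library could be left out. Of 197 tested values under alternatives, 175 stayed on their side of the threshold, and 13 of these had another sign without passing the test. Of 13 alternative counts of members or gene ends, 11 were within 1.5 times the count in the text. The cause of the changes below was not tested. Restricting the catalog to regions at or above the median score left 618 members and 403 gene ends, so that fewer regions entered each test. Under it, the differences of gene ends from coding exons in density (1.95 per Mb) and from introns in the shares of repeats (-1.13 percentage points), AP-1 (-3.99) and CTCF (1.55) no longer passed the test, and peak width changed sign (0.0526 bp, adjusted permutation p = 0.998). The density difference from introns passed the test over 2500 bp from transcript starts (4.38 per Mb, adjusted permutation p = 0.0292) and with all listed summits (5.46 per Mb, adjusted permutation p = 0.0230), but was 0.110 per Mb at or above the median score and 0.765 per Mb without repeats. The score difference from introns, which is short of the threshold in the text, passed it over 500 bp from starts (-47.7), with all summits (-41.2), with basic transcripts (-49.2), without repeats (-58.2) and with nonsense-mediated decay transcripts included (-52.7), with adjusted permutation p between 0.0130 and 0.0410. It was -28.3 over 2500 bp from starts and turned to 13.4 at or above the median score, and neither passed. The difference of the last 500 bp from the rest of 3′ UTRs, which passed nowhere, was 6.61 per Mb with all summits and -0.306 at or above the median score. Peak width did not pass over 500 bp (-4.63 bp) or 2500 bp (-5.26 bp) from starts, nor with all summits (-2.26 bp). AP-1 was just above the threshold over 2500 bp (-4.34 percentage points). RUNX did not pass with all summits (-2.02), without repeats (-2.30), with a window of 50 bp (-1.24), or with introns weighted to the GC content of gene ends (-2.19), which was added after the data were seen together with weighting by score, regions outside protein-coding genes and genes with at least 1000 bp of 3′ UTR. With a window of 200 bp, PU.1/ETS (-2.02) and SP/KLF (1.85) passed the test. Chromosomes 18 and 12 have few gene ends, and each chromosome counts equally.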
